A study of Homo sapiens with 4 samples.

Results

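Homing receptors and integrins decide where a B cell settles. Here 9 human genes of this kind were followed in mantle cell lymphoma (MCL) cells: the chemokine receptor genes CXCR4, CXCR5 and CCR7, the lipid receptor genes S1PR1 and GPR183, the integrin genes ITGA4, ITGB1 and ITGB7, and RGS1, a brake on chemokine receptor signalling. All probe sets that the array annotation gives to these symbols were taken, which made 26 probe sets, and the 9 genes are part of 18239 genes with a probe set of their own. Every gene had at least 1 probe set bright enough to be kept, as did 10823 genes in all, and 23 of the 26 probe sets reached that minimum.

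The study measured RNA from 2 MCL cell lines, REC-1 and Z138, on 4 expression arrays: REC-1 cells given CC-292, REC-1 control cells, Z138 cells given CC-292 and Z138 control cells, with 1 array each. MCL is a B-cell lymphoma whose hallmark is a translocation of the cyclin D1 gene CCND1, and both lines are established cultures of it. CC-292 blocks Bruton tyrosine kinase (BTK), which relays signals from the B-cell receptor and also from chemokine receptors to integrins. The labels give 48 h of exposure, apart from the Z138 control, whose title names no time. The dose is 1 uM in the treatment protocol and 1 mM in the titles of the treated arrays. The control cultures are labelled only as control, so a vehicle is not given in the sources used here. The series' title relates CC-292 activity to NF-kB mutational status, which no label used here gives for either line, and a line is 1 tumour's cells in culture without stroma, endothelium or chemokine gradients.

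Chemokine receptors are G-protein-coupled receptors that pull B cells along gradients and switch integrins to their binding form. CXCR4 answers to CXCL12 of bone marrow and lymph node stroma, CXCR5 to CXCL13 of B-cell follicles, and CCR7 to CCL19 and CCL21 of the T-cell zone. S1PR1 senses the sphingosine phosphate of blood and lymph and lets lymphocytes leave a node, while GPR183, also called EBI2, follows oxysterols to the outer follicle. The integrin chain of ITGA4 pairs with that of ITGB1 to bind VCAM1 and fibronectin, or with that of ITGB7 to bind the gut addressin MADCAM1. RGS1 speeds up GTP hydrolysis by inhibitory G proteins and so shortens the response to chemokines. BTK inhibitors are known for moving MCL cells out of lymph nodes into blood in patients.

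Promoter windows of the receptor genes that set the lines apart, CCR7 excepted, are printed so that their letters can be read beside the levels. They are the 250 bases before the annotated start of CXCR5, S1PR1 and GPR183, which were higher in REC-1, and of CXCR4, which was higher in Z138. The windows come from RefSeq on GRCh38.p14, each on the strand of its gene, 5′ to 3′. Capitals mark CACCC on either strand, the box that Kruppel-like factors such as KLF2, a known activator of S1PR1, can bind.

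CXCR5: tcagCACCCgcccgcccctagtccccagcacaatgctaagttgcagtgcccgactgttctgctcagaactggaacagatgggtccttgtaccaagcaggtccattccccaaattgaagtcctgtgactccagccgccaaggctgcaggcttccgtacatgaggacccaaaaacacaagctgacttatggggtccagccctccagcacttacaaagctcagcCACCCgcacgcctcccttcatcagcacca
S1PR1: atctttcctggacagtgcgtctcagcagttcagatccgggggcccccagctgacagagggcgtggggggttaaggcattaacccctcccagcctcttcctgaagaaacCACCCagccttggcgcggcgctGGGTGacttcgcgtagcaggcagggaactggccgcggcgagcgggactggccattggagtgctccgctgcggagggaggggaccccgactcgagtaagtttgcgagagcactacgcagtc
GPR183: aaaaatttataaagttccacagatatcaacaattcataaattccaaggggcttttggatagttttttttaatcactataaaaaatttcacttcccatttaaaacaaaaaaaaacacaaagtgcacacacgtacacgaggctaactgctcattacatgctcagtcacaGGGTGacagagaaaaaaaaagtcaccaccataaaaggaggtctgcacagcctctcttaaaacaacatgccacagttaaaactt
CXCR4: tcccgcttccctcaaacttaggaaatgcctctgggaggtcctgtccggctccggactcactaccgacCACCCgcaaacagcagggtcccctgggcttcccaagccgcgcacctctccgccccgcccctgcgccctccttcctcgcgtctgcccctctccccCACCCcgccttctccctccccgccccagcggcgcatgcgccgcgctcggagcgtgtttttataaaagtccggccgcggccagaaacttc

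The CXCR5 stretch is chr11:118893142-118893391 on the plus strand, the S1PR1 stretch chr1:101236769-101237018 on the plus strand, the GPR183 stretch chr13:99307400-99307649 on the minus strand and the CXCR4 stretch chr2:136118150-136118399 on the minus strand. There were windows for 8 of the 9 genes, CCR7 having none, and 11 in all, since CXCR4 and ITGB1 have more than 1 start. CXCR4 is shown at the start farthest upstream. CACCC or its complement occurred in 9 of these 11 windows and in 54.7% of 35116 windows of the same length for all genes. The octamer ATTTGCAT (1.63% of all windows), the FOXO site TGTTTAC (2.98%), the E-box CACCTG (17.5%) and the kappaB motif (5.21%), each sought on both strands, occurred in 0 of the 11. The GC content was 57.2% for CXCR5, 64.4% for S1PR1, 34.4% for GPR183 and 68.0% for CXCR4, against a median of 58% over all windows. A match is a description of the letters and shows no binding.

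Values are log2 signals of the probe set that is brightest on average over the 4 arrays, unless another probe set is named, and 1 unit of difference is a 2-fold change. The kept genes reached a log2 signal of 4.63, the median of all values, on at least 1 array. Probe sets for background had medians of 3.06 to 3.12, and their 90th percentile was 4.21 to 4.37. The spread of a gene's difference over its probe sets that reached the minimum is given as an SD, which holds no error between cultures. Where only 1 probe set reached it, as for CCR7, ITGB7 and RGS1, the SD pooled over 6763 genes is used. This pooled SD was 0.31 for the CC-292 difference in REC-1 and 0.25 in Z138. For the difference between the lines it was 0.46 on the CC-292 and 0.48 on the control arrays. The comparisons share arrays, since each control array serves both its line's CC-292 difference and the difference between the lines. The arrays of a line correlated at 0.987 in REC-1 and 0.991 in Z138 over all probe sets, and arrays of different lines at 0.922 to 0.926. Of 6 B-cell markers 5 were measured and all 5 were bright on the 4 arrays, from PAX5 at 6.23 to 6.38 to MS4A1 at 11.74 to 12.03. CCND1 was at 11.83 to 11.95. Of 19 markers of T, NK, myeloid, stromal, endothelial and erythroid cells 18 were measured and 6 reached the minimum. Their summed log2 signals were 69.9 and 68.2 in REC-1 (CC-292, control) and 73.2 and 74.5 in Z138, the brightest being CD3G at 6.07 and 5.96 in Z138, while CD3E and CD2 were below the minimum on every array, and their part in the results was not tested. The 3′ minus 5′ log2 signal of ACTB, which grows as RNA degrades, was 0.53 and 0.77 in REC-1 and 1.11 and 1.12 in Z138. That of GAPDH was -0.31 and -0.32 in REC-1 and -0.24 and -0.28 in Z138. The part of RNA quality was not tested either.

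**Figure D1:**
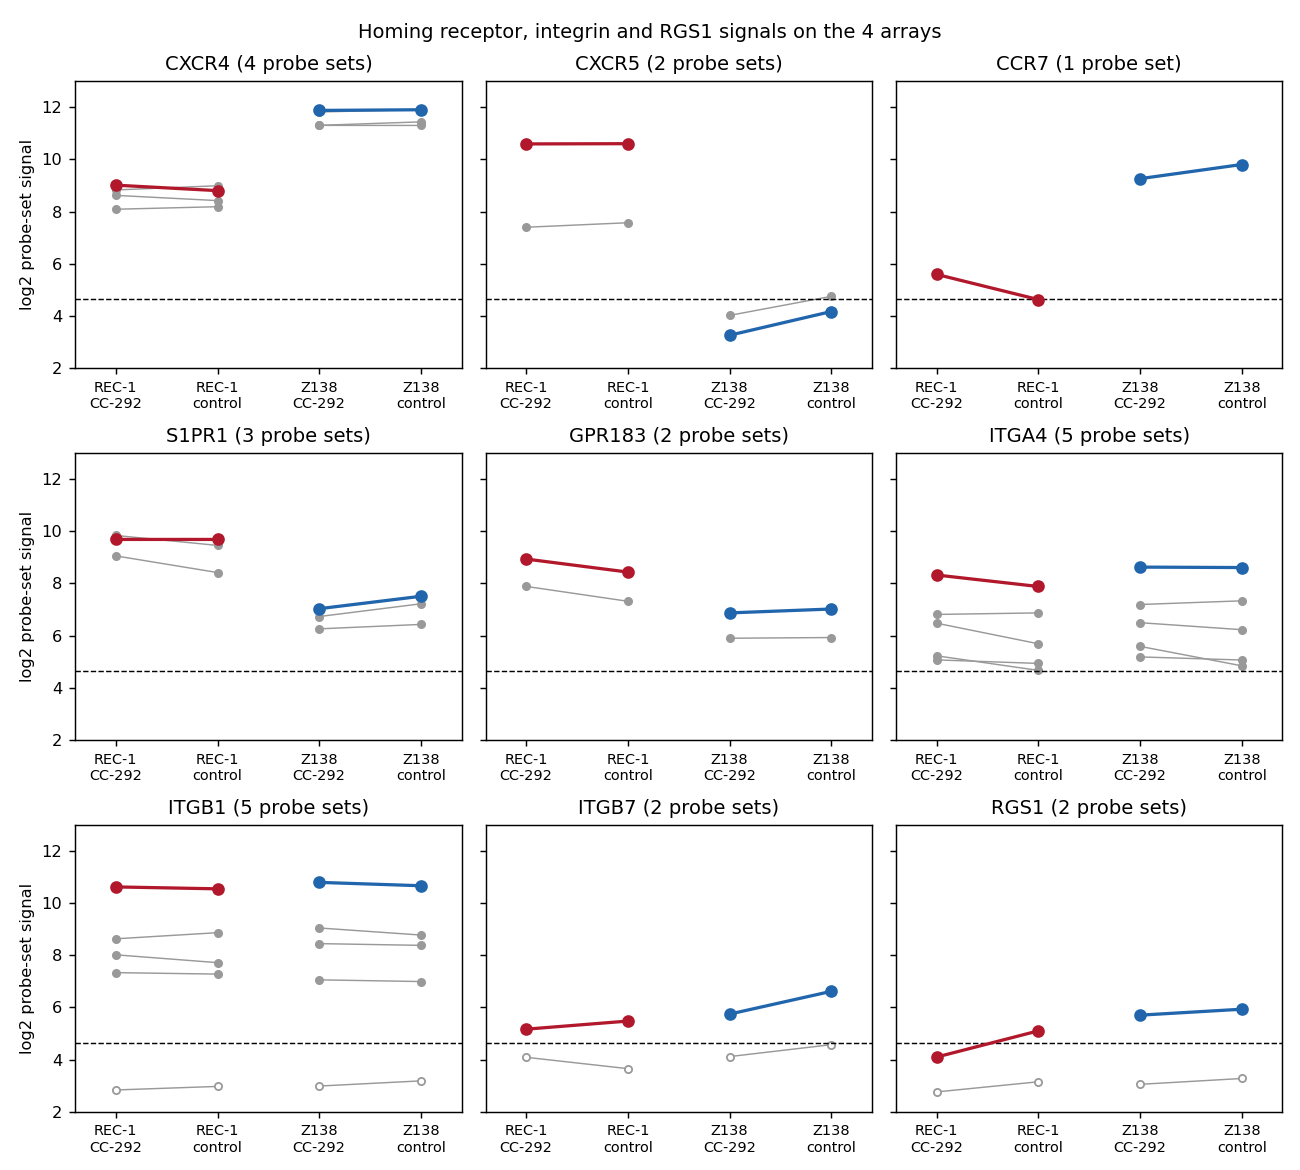
Log2 signals (vertical axes) of every probe set of the 9 genes on the REC-1 CC-292, REC-1 control, Z138 CC-292 and Z138 control arrays. Coloured points and lines are the brightest probe set (red for REC-1, blue for Z138), grey ones the other probe sets, open points probe sets below the brightness minimum on all arrays, and the dashed line that minimum, 4.63; each point is 1 array, and CXCR5, S1PR1 and GPR183 lie higher in REC-1, CXCR4 and CCR7 higher in Z138.

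The lines differed in the RNA signals of chemokine receptor genes. REC-1 was bright for CXCR5 and dim for CCR7, Z138 was bright for CCR7 and at or near background for CXCR5, and CXCR4 was present in both but about 3 log2 units lower in REC-1. CC-292 was followed by little difference in CXCR4 in either line, by lower CXCR5 in Z138, and by a CCR7 difference of opposite sign in the lines.

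CXCR4 had signals of 9.01 with CC-292 and 8.80 in the control in REC-1, against 11.87 and 11.90 in Z138. Both REC-1 arrays lay below both Z138 arrays on each of the 4 probe sets. The difference was -2.86 on the CC-292 arrays (SD 0.22 over 4 probe sets) and -3.10 on the control arrays (SD 0.17), so that REC-1 was 7.28-fold and 8.57-fold lower. After CC-292, CXCR4 differed by 0.21 in REC-1 on this probe set, but 2 of the 4 probe sets were above 0 and 2 below, from -0.16 to 0.21. In Z138 the CC-292 difference was -0.03 (SD 0.06 over 4 probe sets), with a range of -0.13 to 0.00. The REC-1 difference was just past its SD over the 4 probe sets (0.19), but its sign depended on the probe set. The Z138 difference was within its SD.

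CXCR5 had signals of 10.59 with CC-292 and 10.60 in the control in REC-1, against 3.26 and 4.17 in Z138. Both Z138 values lay at or under the 90th percentile of background probe sets, so the fold between the lines (161-fold on the CC-292 and 86.2-fold on the control arrays) depends on a value at background. Its second probe set gave 7.40 and 7.57 in REC-1, against 4.02 and 4.75 in Z138. The lines did not overlap on either probe set, with differences of 7.33 and 3.38 on the CC-292 arrays and 6.43 and 2.82 on the control arrays. In absolute size the CXCR5 difference of the brighter probe set ranked 8th of 10823 genes on the CC-292 arrays and 20th on the control arrays. These ranks depend on the probe set and on Z138 values at background. After CC-292, CXCR5 was at -0.01 and -0.17 on its probe sets in REC-1. In Z138 it was at -0.91 and -0.73 (SD 0.13 over 2 probe sets), a 1.88-fold lower signal on the brighter one. That Z138 difference was past the spread over probe sets, but 3 of the 4 values it rests on were below the brightness minimum and below that background percentile.

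CCR7 had 1 probe set, with signals of 5.59 with CC-292 and 4.63 in the control in REC-1, against 9.26 and 9.80 in Z138. REC-1 was thus 12.7-fold lower on the CC-292 arrays (-3.67) and 36.1-fold lower on the control arrays (-5.17). The CC-292 difference was 0.96 in REC-1, where the control value lay just under the brightness minimum, and -0.54 in Z138. Both CC-292 differences exceeded the pooled SD between probe sets. The difference between them, 1.51, ranked 73rd in size of 10823 genes.

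The lipid receptor genes S1PR1 and GPR183 were both higher in REC-1, and the excess was larger on the CC-292 arrays than on the control arrays. S1PR1 had signals of 9.68 and 9.68 in REC-1 (CC-292, control), against 7.03 and 7.50 in Z138. All 3 probe sets put REC-1 higher, by 2.65 to 3.11 on the CC-292 arrays and by 1.99 to 2.24 on the control arrays. On the brightest probe set that was 6.29-fold and 4.52-fold. In REC-1 its CC-292 difference was 0.00 on the brightest probe set but 0.38 and 0.64 on the other 2, and in Z138 it was -0.48, -0.49 and -0.17 on the same 3. The Z138 difference was thus below 0 on every probe set, while the size in REC-1 depended on the probe set.

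GPR183 had signals of 8.93 with CC-292 and 8.43 in the control in REC-1, against 6.87 and 7.02 in Z138. REC-1 was 4.18-fold higher on the CC-292 arrays (2.06, SD 0.05 over 2 probe sets) and 2.67-fold higher on the control arrays (1.42, SD 0.02). Its CC-292 difference was 0.50 and 0.57 on the 2 probe sets in REC-1 (SD 0.05), and -0.15 and -0.03 in Z138 (SD 0.09). The REC-1 difference was past the spread over probe sets, and it ranked 1406th in size of 10823 genes.

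Of the integrin genes, ITGB7 differed between the lines by limma, while ITGB1 and ITGA4 did not pass. ITGB1, the shared beta chain, had signals of 10.61 with CC-292 and 10.54 in the control in REC-1, against 10.79 and 10.66 in Z138, a span of 0.25 over the 4 arrays. Its line difference was -0.17 on the CC-292 arrays and -0.12 on the control arrays, within the SD over its 4 bright probe sets (0.33 and 0.41), and its CC-292 difference was 0.07 in REC-1 (SD 0.22) and 0.13 in Z138 (SD 0.10). Another ITGB1 probe set did not reach the minimum on any array. ITGA4 had signals of 8.32 with CC-292 and 7.88 in the control in REC-1, against 8.62 and 8.60 in Z138. It was 1.65-fold lower in REC-1 on the control arrays (-0.73, SD 0.30 over 5 probe sets) and 1.23-fold lower on the CC-292 arrays (-0.30, SD 0.24). Its CC-292 difference in REC-1 was 0.44, above 0 on 4 of 5 probe sets (-0.06 to 0.79), and in Z138 0.02, also above 0 on 4 of 5 (-0.14 to 0.74). The ITGA4 differences in both lines thus overlapped over probe sets.

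ITGB7, the beta chain of the gut-homing integrin, had signals of 5.16 with CC-292 and 5.47 in the control in REC-1, against 5.74 and 6.61 in Z138. The Z138 control was the highest of the 4 arrays. Its CC-292 difference was -0.31 in REC-1, equal to the pooled SD to 2 decimals, and -0.87 in Z138 (1.83-fold lower). A second probe set, below the minimum on all arrays, differed by 0.44 in REC-1 and -0.46 in Z138, so its sign matched in Z138 and not in REC-1. Between the lines ITGB7 was lower in REC-1, with a difference of -0.58 on the CC-292 arrays and -1.14 on the control arrays. On the second probe set these were -0.03 and -0.92.

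RGS1 had signals of 4.09 with CC-292 and 5.10 in the control in REC-1, against 5.70 and 5.93 in Z138. The REC-1 CC-292 array was the lowest of the 4 and lay below the brightness minimum and below the 90th percentile of background. The CC-292 difference was -1.003 in REC-1, 2.005-fold lower, and -0.23 in Z138. The second probe set of RGS1, below the minimum throughout, differed by -0.39 and -0.22. RGS1 was lower in REC-1 than in Z138 by 3.04-fold on the CC-292 arrays (-1.61) and 1.78-fold on the control arrays (-0.83). On the second probe set these differences were -0.29 and -0.13, and with the mean of all probe sets that on the CC-292 arrays was -0.95.

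**Figure D2:**
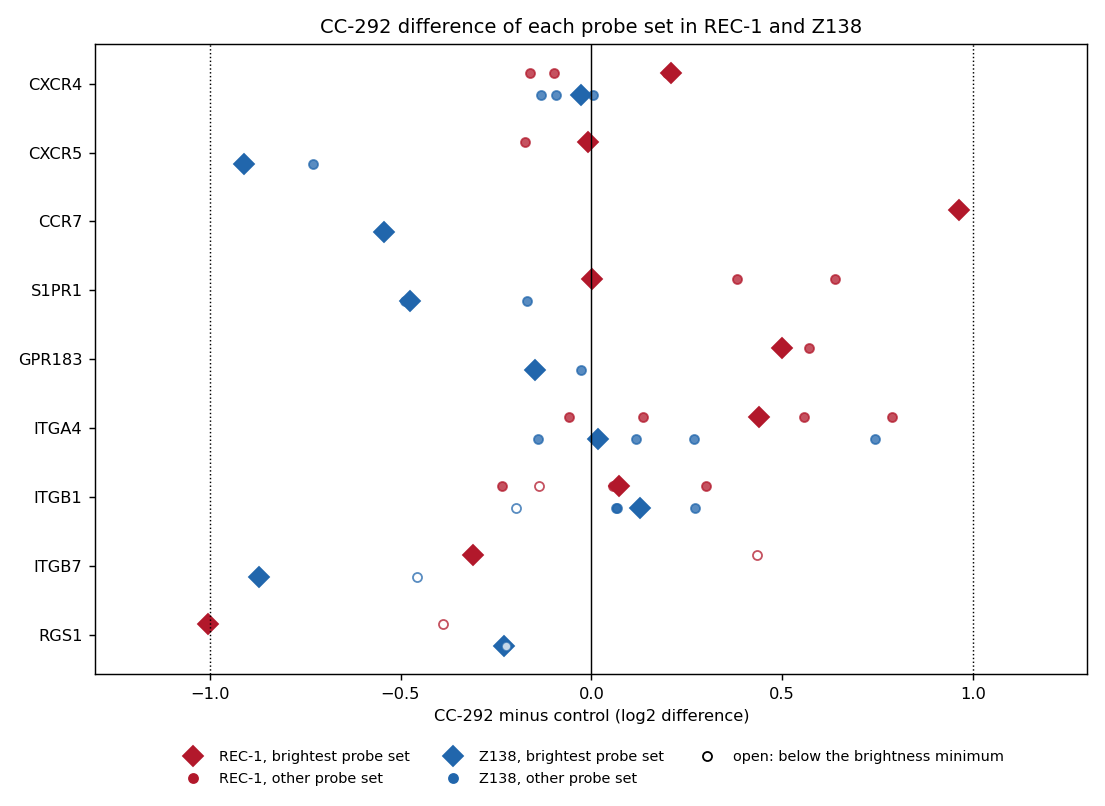
CC-292 minus control difference on the log2 scale (horizontal axis) of every probe set of the 9 genes, REC-1 in red above Z138 in blue. Diamonds are the brightest probe set of a gene, circles the other probe sets, open circles probe sets below the brightness minimum, and dotted lines a 2-fold difference; RGS1 in REC-1 is at -1.003 and CCR7 in REC-1 at 0.96, while CXCR5 at -0.91 and ITGB7 at -0.87 are the lowest in Z138.

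Counted over the 9 genes, 1 was at least 2-fold different after CC-292 in REC-1, RGS1, where 1.60% of 10823 genes were. None was in Z138, where 0.564% of genes were. At 1.5-fold the count was 2 in REC-1 (CCR7 higher, RGS1 lower; 9.05% of genes) and 2 in Z138 (CXCR5 and ITGB7, both lower; 4.70% of genes). The median over the 9 genes was 0.07 in REC-1 and -0.23 in Z138, against -0.05 and 0.01 over all kept genes. In REC-1 6 members were above 0, as were 42.1% of genes, and in Z138 2 (ITGA4 and ITGB1), where 51.9% of genes were. CC-292 differences had opposite signs in the lines for 4 of the 9, CXCR4, CCR7, S1PR1 (0.00 in REC-1) and GPR183, where 53.0% of all genes had. The REC-1 minus Z138 gap between the CC-292 differences was above 0 for 7 members (43.1% of genes) and at least 2-fold for 1, CCR7 (4.11% of genes). With 1 array per group none of these counts has a test.

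For the CC-292 effect averaged over REC-1 and Z138, a limma fit over 10823 genes had the cell line as a block. A gene's own error in this fit is the gap between the CC-292 differences of the lines, so a response particular to a line counts as error. That error has 1 residual degree of freedom. It was moderated towards a variance shared by all genes, with a prior of 4.5 degrees of freedom. Each SE and p thus mixes the gene's own gap with the shared variance. No member passed after Benjamini-Hochberg adjustment and neither did any other gene (0.00%), each member having an adjusted p of 0.9999 in limma. At an unadjusted limma p under 0.05, 2 of the 9 members and 4.36% of genes were counted. They were ITGB7, with an average of -0.59 ± 0.20 (SE), and RGS1, with -0.62 ± 0.23 (SE), each below 0 in 2 of 2 lines. CXCR5 averaged -0.46 ± 0.25 (SE), which rests on Z138, where it was dim, since the REC-1 difference was -0.01 and was above 0 after quantile normalization (0.04) and cyclic loess (0.03). The averages of CCR7 (0.21 ± 0.36) and S1PR1 (-0.24 ± 0.19) hold CC-292 differences that point apart or differ in size between the lines. In 0 of the 9 genes did both CC-292 arrays lie outside both control arrays (10.9% of genes did). This count pools the lines, so a gene whose line difference exceeds its CC-292 differences in size cannot meet it. CXCR4, CXCR5, CCR7, S1PR1 and GPR183 were among such genes, so for them it says nothing about CC-292.

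The average difference between the lines was tested in the same limma fit, with agent as the block, so that the 2 conditions serve as the repeat. Of the 9 members 7 passed, 3 higher and 4 lower in REC-1, where 44.7% of genes passed (21.6% higher, 23.1% lower). The fit shows differences between these cultures, and both cultures of a line are cells of that line. CXCR5 was higher in REC-1 by 6.88 ± 0.25 (SE, adjusted p = 6.2e-05 by limma), S1PR1 by 2.42 ± 0.19 (adjusted p = 0.00047) and GPR183 by 1.74 ± 0.21 (adjusted p = 0.0020). The CXCR5 probe set in the fit reached the brightness minimum only on the 2 REC-1 arrays. Its Z138 values were at background, so 6.88 is no exact size. The second CXCR5 probe set averaged 3.10 ± 0.20 (SE) higher in REC-1. Lower in REC-1 were CCR7 at -4.42 ± 0.36 (adjusted p = 0.00056 by limma), CXCR4 at -2.98 ± 0.16 (adjusted p = 0.00015), RGS1 at -1.22 ± 0.23 (adjusted p = 0.0088) and ITGB7 at -0.86 ± 0.20 (adjusted p = 0.018). Each of these held its sign in 2 of 2 conditions. The integrin genes ITGA4 (-0.51 ± 0.18, adjusted p = 0.066 by limma) and ITGB1 (-0.15 ± 0.16, adjusted p = 0.49) did not pass. The 2 REC-1 arrays lay outside the 2 Z138 arrays for 9 of 9 members, and for 76.8% of genes. By fold alone, 6 members differed at least 2-fold on the CC-292 arrays (25.3% of genes) and 6 on the control arrays (24.3%). CXCR4, CXCR5, CCR7, S1PR1 and GPR183 were counted on both, with RGS1 on the CC-292 and ITGB7 on the control arrays. The median absolute difference of the members was 2.06 on the CC-292 and 1.42 on the control arrays, against 0.50 and 0.50 over all kept genes. The members were chosen with earlier results of these data known, so this contrast is a description and no test.

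**Figure D3:**
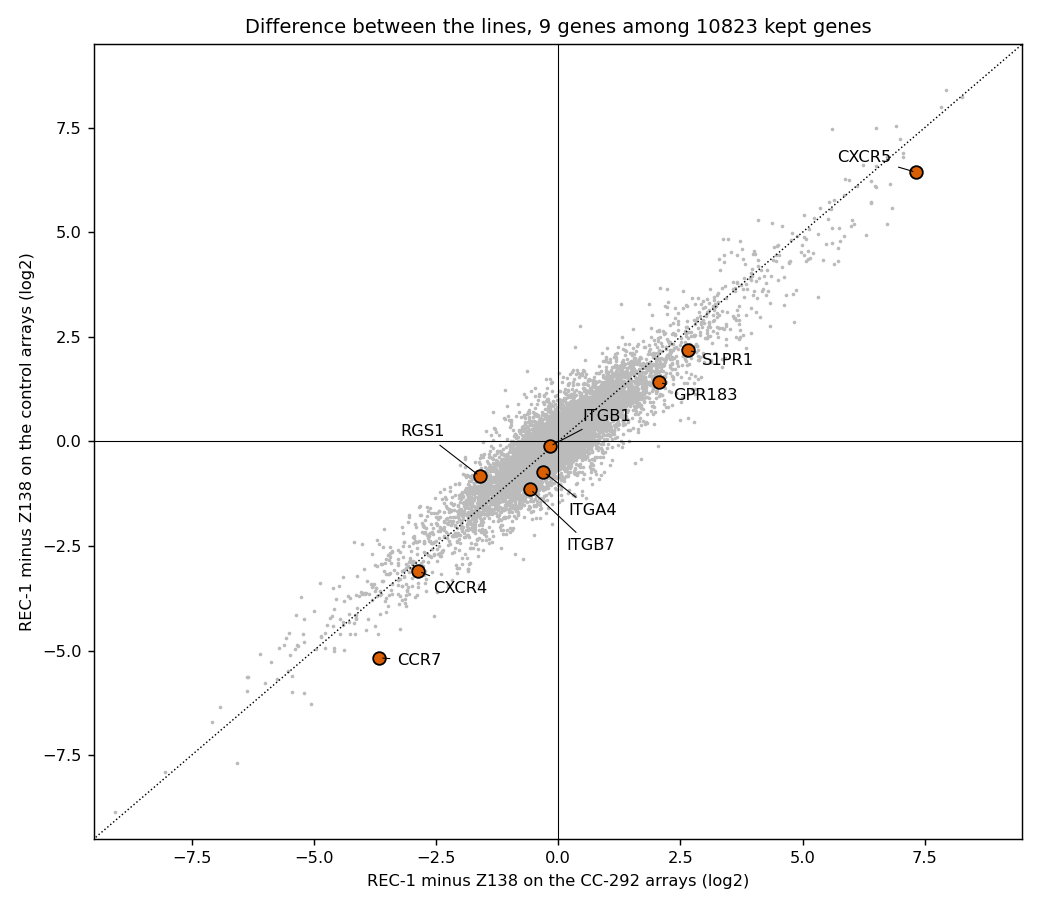
REC-1 minus Z138 difference on the log2 scale on the CC-292 arrays (horizontal axis) and on the control arrays (vertical axis), grey points for the 10823 kept genes and orange points for the 9 genes, with the dotted line marking equal differences. CXCR5 (7.33 and 6.43) lies at the upper right, CXCR4 (-2.86 and -3.10) and CCR7 (-3.67 and -5.17) at the lower left, CCR7 off the line, and ITGB1 (-0.17 and -0.12) near the origin.

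Of 18 other lymphocyte homing receptors and adhesion receptors for homing, 9 were kept, and 6 differed between the lines by limma (44.7% of all genes did), 5 higher and 1 lower in REC-1 (21.6% and 23.1%). The hyaluronan receptor gene CD44 had signals of 7.35 and 7.32 in REC-1 (CC-292, control), against 2.95 and 2.98 in Z138, and passed at an average difference of 4.37 (adjusted p = 6.2e-05 by limma, higher in REC-1 in 2 of 2 conditions). Both Z138 values lay below the background median, so 4.37 is no exact size, and over its 10 probe sets the mean difference was 2.02 on the CC-292 arrays (SD 1.09) and 2.02 on the control arrays (SD 1.02). CCR6, the receptor gene for CCL20, averaged 1.58 higher in REC-1 (adjusted p = 0.0011 by limma) but reached the minimum on 1 array. None of the 9 passed for CC-292 by limma. In REC-1, ACKR3, which encodes the scavenging second receptor for CXCL12, was at -1.29 (4.15 with CC-292, 5.45 in the control) and the cannabinoid receptor gene CNR2 at 1.03 (5.78 and 4.74). Both were dim, ACKR3 being above the minimum on 1 array and CNR2 on 2. SELPLG, the selectin ligand gene, was at 0.55 in REC-1 and 0.69 in Z138. The list's median was 0.26 in REC-1 and -0.04 in Z138, with CNR2 alone past 2-fold upward and ACKR3 alone downward in REC-1, where 0.841% and 0.758% of all genes were.

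Of 22 other integrin and adhesion genes 13 were kept, and 7 differed between the lines by limma, 5 higher and 2 lower in REC-1, beside 44.7% of all genes. The junctional adhesion gene JAM3 had signals of 9.98 and 9.24 in REC-1, against 4.95 and 4.78 in Z138, and averaged 4.74 higher (adjusted p = 8.2e-05 by limma, 2 of 2 conditions). The tetraspanin gene CD82, whose protein sits beside integrins, had 8.19 and 7.71 in REC-1, against 4.50 and 5.25 in Z138 (average 3.07, adjusted p = 0.0011 by limma), and CD47, an integrin-associated protein gene, averaged 2.23 higher (adjusted p = 0.00035). None of the 13 passed for CC-292 by limma. The tetraspanin gene CD9 was at 0.84 in REC-1 and -0.38 in Z138, CD82 at 0.48 and -0.75, JAM3 at 0.73 and 0.16, and PECAM1 at 0.72 and 0.66. The integrin chain genes of the LFA family, ITGAL and ITGB2, were below the minimum on all arrays.

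Of 19 genes for integrin activation and adhesion signalling 17 were kept, and 8 differed between the lines by limma, 5 higher and 3 lower in REC-1, a share near the 44.7% of all genes. SKAP1, an adaptor gene for integrin activation in T cells, had signals of 3.83 and 3.76 in REC-1, against 8.29 and 8.37 in Z138 (average -4.53, adjusted p = 6.2e-05 by limma). Both REC-1 values of SKAP1 lay below the 90th percentile of background, so that size is not exact. CYTH1, whose protein binds a leukocyte integrin tail, averaged -1.96 (adjusted p = 0.0015; -1.08 and -1.34 as the mean of its 3 probe sets on the CC-292 and control arrays) and PXN, the focal adhesion scaffold gene paxillin, -1.37 (adjusted p = 0.0024 by limma). In REC-1 the adaptor gene FYB1 was at 1.21 after CC-292 (5.37 and 4.15) and ZYX, the zyxin gene, at -0.78, both above the minimum on 1 array. RASGRP2, which activates RAP1 downstream of chemokine receptors, was at 0.31 in REC-1 and -0.66 in Z138, and the focal adhesion kinase gene PTK2 at -0.04 and 0.64. None passed for CC-292 by limma.

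Of 25 genes for RGS proteins and G-protein signalling 21 were kept, and 10 differed between the lines by limma, 8 higher and 2 lower in REC-1, a share near the 44.7% of all genes. The G-protein gamma chain gene GNG2 had 8.05 and 8.52 in REC-1, against 4.02 and 4.05 in Z138, and averaged 4.25 higher (adjusted p = 8.3e-05 by limma, 2 of 2 conditions). Both Z138 values of GNG2 lay below the 90th percentile of background, so that size is not exact. RGS19 averaged 2.11 higher (adjusted p = 0.00046) and RAC2, a GTPase gene of leukocyte migration, 1.97 higher (adjusted p = 0.00061 by limma). RGS16 was lower in REC-1 (-1.51, adjusted p = 0.0018 by limma), the same direction as RGS1. After CC-292, GRK6, a kinase gene for receptor desensitization, was at 0.73 in REC-1 and -0.14 in Z138, and RGS14 at 0.58 and -0.15. RGS3 was at 0.15 and -0.61, and GRK5 at 0.17 and 0.61. These values depended on the probe set, since in REC-1 the mean over probe sets was 0.12 for GRK6 (SD 0.44), 0.12 for RGS14 (SD 0.65), -0.53 for RGS3 (SD 0.96) and -0.01 for GRK5 (SD 0.25). In this list 0 genes were 2-fold different in either line.

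Genes for the ligands were mostly not detected. Of 19 ligands and ligand-making enzymes 7 were kept, and the genes for CXCL12, CXCL13, CCL19, CCL21, VCAM1 and MADCAM1 stayed under the minimum on all 4 arrays. Kept genes served the sphingosine phosphate pathway in the main. PLPP3 and PLPP1, lipid phosphate phosphatase genes, averaged 3.72 and 1.73 higher in REC-1 (adjusted p = 8.3e-05 and 0.00093 by limma). PLPP3 was at 4.09 and 3.99 in Z138, below the 90th percentile of background, so 3.72 is not an exact size. SPNS2, a sphingosine phosphate exporter gene, was at 1.29 in REC-1 and -0.10 in Z138, but above the minimum on 1 array, and PLPP1 was at -0.79 and -0.54. Over its 3 probe sets PLPP1 had means of -0.07 in REC-1 (SD 0.88) and -0.13 in Z138 (SD 0.37), within their spread.

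All 12 listed regulators of these receptors were kept, and 10 differed between the lines by limma, 5 higher and 5 lower in REC-1, beside 44.7% of all genes. CD69, whose protein binds S1PR1 and takes it off the surface, had 7.19 and 7.65 in REC-1, against 4.15 and 5.06 in Z138, and averaged 2.81 higher (adjusted p = 0.00027 by limma). NFKB2, below the 90th percentile of background in REC-1, averaged -2.30 (adjusted p = 0.0011) and BACH2 -2.22 (adjusted p = 0.00035 by limma), both lower in REC-1. KLF2, which activates S1PR1, was lower in REC-1 (-0.90, adjusted p = 0.0087 by limma) while S1PR1 was higher, and FOXO1, a factor upstream of KLF2 and CCR7 in lymphocytes, was higher (by 1.37 on the CC-292 and 0.83 on the control arrays, adjusted p = 0.0071 by limma). POU2AF1 and POU2F2, octamer-binding partners known to act on the CXCR5 promoter, averaged 1.60 and 1.48 higher in REC-1 (adjusted p = 0.0011 and 0.0015 by limma). CCR7 was lower in REC-1, where FOXO1 was higher, and the 250-base CXCR5 window held no octamer. KLF2, FOXO1, POU2F2 and POU2AF1 were named after their values were seen. Their part in the receptor differences was not tested. After CC-292, 9 of the 12 were below 0 in REC-1 and 11 in Z138, where 57.8% and 48.1% of all genes were. RELB was at -0.92 and IRF4 at -0.70 in REC-1, and CD69 at -0.46 in REC-1 and -0.90 in Z138. The Z138 CC-292 value of CD69 (4.15) lay below the brightness minimum and the 90th percentile of background, so its -0.90 and 2.81 are not exact sizes.

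**Figure D4:**
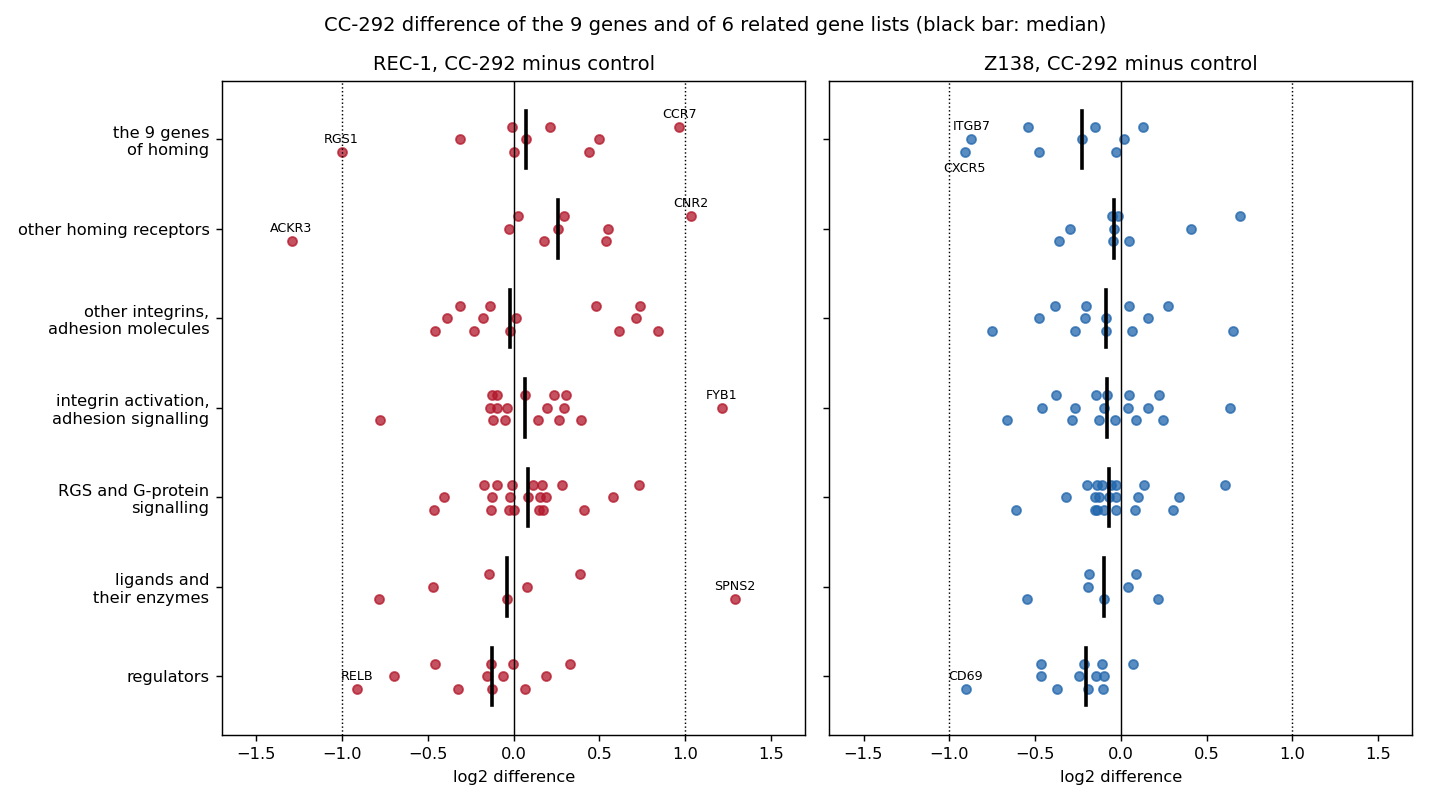
CC-292 minus control difference on the log2 scale (horizontal axes) for the 9 genes and the kept genes of 6 related lists, REC-1 on the left in red and Z138 on the right in blue; each point is 1 gene, black bars are medians, dotted lines a 2-fold difference, and genes with a size of at least 0.85 are named. The 9 genes spread from -1.003 to 0.96 in REC-1 and from -0.91 to 0.13 in Z138, and the regulators have medians of -0.13 and -0.20.

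For the 7 members whose signals spanned at least 1, the genes with the most similar pattern were sought by the Euclidean distance of centred log2 signals over the 4 arrays. GPR183 was nearest to MTURN (0.02) and FAM114A1 (0.08), and CXCR4 to ETV6 (0.06) and NPL (0.08). RGS1 was nearest to PACSIN1 (0.07) and to RELB (0.16), whose CC-292 difference in REC-1 was -0.92 beside -1.003 for RGS1. ITGB7 was nearest to KCNJ4 (0.10) and KLHDC7B (0.16), and S1PR1 to SALL3 (0.10) and SIPA1 (0.13). CXCR5 was nearest to UCHL1 (0.58) and ALOX5 (0.59), and CCR7 to CLEC2D (0.52) and SCARNA14 (0.54). The distance is not scaled to a gene's span, which was 7.34 for CXCR5 and 5.17 for CCR7, so distances of different members are not comparable. With 4 arrays such likeness is a description of levels.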

How the data were processed

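RNA from REC-1 and Z138 cells was measured on 4 Affymetrix arrays, 1 per group. The deposited values are log2 signals, which the authors made with RMA in Affymetrix Expression Console 1.1, per the submitters' processing notes; no source used here gives the RMA settings. Of 49386 probe sets, 45259 carried 1 gene symbol. A gene was represented by its probe set with the highest mean, and kept if that reached the median of all values, 4.63, on at least 1 array. The lowest value was 2.18 and the highest 14.26, and the number of arrays limits the precision. Differences within a line and between lines came from 1 array each and have no test. Average effects were fitted with limma 3.58.1 in R 4.3.3, with the other factor as a block and 1 residual degree of freedom, moderated by a prior of 4.5, and Benjamini-Hochberg adjustment over 10823 genes. The fit was tested on simulated data with the same CC-292 change in both lines, which does not cover a response particular to a line. No label says whether the cultures were independent. The residual degree of freedom is the gap between the CC-292 differences of the lines. Any real difference between the responses of the lines thus counts as error in the p-values, which measure no spread between repeat cultures. Alternatives changed the brightness filter, normalization, probe set rule, fold threshold and fit.

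The 9 genes, the 6 gene lists and the markers were chosen with earlier results of these data known. From each list, up to 4 genes at least 1.5-fold different after CC-292 and up to 3 at least 2-fold different between the control arrays are named. RGS16, KLF2, FOXO1, POU2F2 and POU2AF1 fall outside that rule and were named after their values were seen.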

Additional observations from a re-analysis of the deposited data

Results flagged for a closer look

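CCR7 is listed here because of the gap between its CC-292 differences in the lines. The CC-292 difference was 0.96 in REC-1 (5.59 with CC-292, 4.63 in the control) and -0.54 in Z138 (9.26 with CC-292, 9.80 in the control), a gap of 1.51. CCR7 was the only 1 of the 9 members with a gap of at least 2-fold, which 4.11% of genes had. Opposite signs in the lines did not set it apart, since 4 members and 53.0% of genes had them. The gap was not tested, since each group has 1 array. CCR7 has 1 probe set, so no second measurement of the gene exists on the array, and the REC-1 control value lay just under the brightness minimum.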

How the results depend on the processing

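Of 488 values of single members under other settings, counts of members left aside, 475 kept their call or stayed within the spread, and 0 reversed a called value. Much of this tally was fixed in advance. The brightness settings leave every untested member difference as it was, and those of CCR7, with 1 probe set, cannot change under the probe set rules. No gene passed for the average CC-292 effect in any setting, so all 89 of those values count as the same. An untested difference could count as reversed only if it was at least 2-fold at first. The count of members at least 2-fold different after CC-292 in REC-1 was 1, and it was 0 with a brightness minimum at the 70th percentile (where RGS1 was left out), 0 after quantile normalization, 0 with the mean of all probe sets, 2 at a 1.5-fold and 0 at a 3-fold threshold. In Z138 it was 0, and 2 at a 1.5-fold threshold. For the gap between the CC-292 differences, whose alternatives were chosen after seeing the data, it was 1, and 4 at 1.5-fold and 0 at 3-fold. The counts for the line difference (6 on the CC-292 arrays, 6 on the control arrays, 7 in limma) and the 0 for the average CC-292 effect did not move by over 1.5 times. With the mean of all probe sets the REC-1 CC-292 difference was 0.34 for S1PR1 and, with its sign changed, 0.06 for ITGB7. The average line difference of ITGA4 passed with the 70th percentile minimum (adjusted p = 0.033 by limma) and with an intensity trend (0.0058), and that of ITGB7 did not pass without agent as a block (0.070); the cause was not tested. Over all genes, the 173 at least 2-fold different after CC-292 in REC-1 were 47 at the 70th percentile, 70 with the mean of all probe sets, 980 at 1.5-fold and 11 at 3-fold. The 61 in Z138 were 99 without a filter, 19, 22, 509 and 0. The 4840 genes with a line difference were 10621 probe sets in a fit over probe sets. The average effects were fitted with line or agent as the block, and no other pairing could be made with 1 array per group. Signals near background limit CXCR5 in Z138, CCR7 in REC-1 and RGS1 in REC-1 with CC-292.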

Other observations

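CD247, the zeta chain gene, had signals of 3.68 and 3.43 in REC-1 (CC-292, control), against 6.02 and 5.70 in Z138. CD3G had 4.46 and 4.22 in REC-1, against 6.07 and 5.96 in Z138, the same direction as SKAP1. CD3D had 4.81 and 4.57 in REC-1, against 3.64 and 3.99 in Z138, the opposite direction, and CD3E was below the minimum on every array. CD22, an inhibitory B-cell receptor gene, had 9.56 and 9.46 in REC-1, against 6.43 and 7.51 in Z138, and its CC-292 difference was 0.10 in REC-1 and -1.08 in Z138. These genes were chosen after their values were seen.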
